A study of Mus musculus with 18 samples.

Results

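The genes described here are 10 genes of the KEAP1-NRF2 antioxidant pathway: Nfe2l2, Keap1, Slc7a11, Gclc, Gclm, Gsr, Txnrd1, Srxn1, Nqo1 and Hmox1. They were chosen by symbol, with no measured value in the rule, and all 10 are among the 14804 genes found in at least 1 of the 3 expression tables of the series. The tables for ESCs and TSCs held 10 of the 10 genes and the table for XEN cells held 9, without Nqo1. Bulk RNA-seq was done on mouse embryonic stem cells (ESCs, line E14), trophoblast stem cells (TSCs) and extraembryonic endoderm (XEN) cells, which stand for the epiblast, the trophoblast and the primitive endoderm of the early embryo. Each was kept in normoxia, in hypoxia for 2 days (acute) or in hypoxia for 7 days (prolonged), and RNA of 2 biological replicates was sequenced for each, which makes 18 libraries. No separate normoxic group was sequenced for each hypoxic time, so that days of hypoxia and time in culture cannot be told apart. The labels and methods name no introduced allele and no other agent for these libraries. Wild-type ESCs grew without feeders on gelatin in serum and LIF, TSCs on a feeder layer with FGF4 and heparin, and XEN cells on gelatin in medium that was in part conditioned by embryonic fibroblasts. The medium of every group held β-mercaptoethanol, a thiol reductant. Values are TPM (reads scaled by gene length to a fixed sum per library), and each table was normalised on its own, so that no test between cell types was made.

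NRF2, the product of Nfe2l2, is a basic leucine zipper transcription factor. In unstressed cells KEAP1 binds it and hands it to a ubiquitin ligase with CUL3. Oxidants and electrophiles modify cysteines of KEAP1, and NRF2 then escapes degradation, pairs with a small MAF protein and binds antioxidant response elements (AREs) near its target genes. The pathway is set largely by the stability of the NRF2 protein, which RNA-seq does not measure. Its targets make and recycle glutathione, feed electrons to thioredoxin, repair peroxiredoxins, reduce quinones and break down haem.

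The reads behind the TPM were recovered for every library and numbered between 35592641 and 75204029 per library. Each table held all markers of its labelled cell type, namely 6 ESC, 7 TSC and 7 XEN markers, but it held some of the others too, so that levels tell more than presence. ESC markers summed to 11833 to 15297 TPM in ESCs, 169 to 1188 in TSCs, without Pou5f1 and Tdgf1 in the table, and 4.79 to 13.7 in XEN cells. The sum in TSCs was mostly Sox2, which ranged from 129 to 1104 TPM there. XEN markers summed to 2376 to 2882 TPM in XEN cells, 14.9 to 25.1 in TSCs and 6.84 to 15.4 in ESCs. TSC markers, a list that holds the keratins Krt8 and Krt18, summed to 20688 to 40107 TPM in TSCs, 138 to 457 in ESCs and 1607 to 3129 in XEN cells. Markers of fibroblasts, the feeder cell type, stood apart in TSCs. Their summed level was 1869 and 264 TPM in the normoxic TSC libraries, 206 and 962 TPM on day 2 and 435 and 262 TPM on day 7, with 10 of 10 markers in the table. In ESCs the sum was between 24.4 and 41.9 TPM with 6 of 10 markers in the table, and in XEN cells between 0.769 and 2.01 TPM with 3 of 10, without Col1a1 and Col3a1. TSC values below are therefore given with these sums in view, and the part of the feeder cells in them was not tested. Less RNA per cell and fewer cells of a type cannot be told apart in bulk samples.

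Promoter windows of RefSeq (GRCm38.p6, 250 bases before to 50 after each start) were searched for the ARE core TGACNNNGC on both strands. The tables matched 7 of the 10 genes, and Gclc, Gsr and Hmox1 had no entry. The core was present in 4 of the 7, namely Nfe2l2, Gclm, Txnrd1 and Srxn1. It was present in 14% of all 27025 genes with a window and in 12.4% of all 32851 windows. The hypoxia response element core, ACGTG or GCGTG on either strand, was in 4 of the 7 (Keap1, Gclm, Txnrd1 and Srxn1) and in 46.7% of all genes. In the windows of these genes no ARE core overlapped a hypoxia response element core. A match is a description of the letters and not a site of binding. The 250 bases before the start are shown for the 3 genes whose ARE core lay upstream of it, since Gclm and Txnrd1 are classical ARE genes and Nfe2l2 encodes the factor itself. They are written 5′ to 3′ on the gene's strand, with the ARE core in capitals.
Gclm, chr3:122245307-122245556, plus strand: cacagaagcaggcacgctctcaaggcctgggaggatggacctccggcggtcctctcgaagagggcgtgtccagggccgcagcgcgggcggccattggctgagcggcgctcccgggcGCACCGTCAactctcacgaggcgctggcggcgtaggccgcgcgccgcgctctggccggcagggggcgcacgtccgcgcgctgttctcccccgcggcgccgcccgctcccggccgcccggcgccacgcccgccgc
Txnrd1, second of 3 windows, chr10:82858956-82859205, plus strand: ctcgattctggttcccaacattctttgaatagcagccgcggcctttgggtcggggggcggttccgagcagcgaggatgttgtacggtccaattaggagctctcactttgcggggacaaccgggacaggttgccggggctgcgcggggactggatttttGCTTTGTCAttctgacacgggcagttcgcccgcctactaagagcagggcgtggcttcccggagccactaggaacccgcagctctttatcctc
Nfe2l2, chr2:75704664-75704913, minus strand: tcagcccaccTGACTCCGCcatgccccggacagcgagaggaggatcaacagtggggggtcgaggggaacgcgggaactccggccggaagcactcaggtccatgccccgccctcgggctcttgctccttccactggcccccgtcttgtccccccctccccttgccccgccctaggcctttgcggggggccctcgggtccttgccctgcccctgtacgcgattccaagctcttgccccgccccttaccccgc
The core of Gclm began 134 bases and that of Txnrd1 92 bases before the start, both read on the opposite strand, and that of Nfe2l2 240 bases before it on the gene's own strand. In Srxn1 it lay 28 bases after the start. Forms with G as the fourth base of the core were not searched, and Srxn1 held such a form, TGAGTCAGC, before its start. The windows of Nqo1 and Slc7a11 held neither motif.

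Levels were first compared between the genes, on TPM recomputed with exon length, because the deposited TPM are divided by the distance from start to end of a gene with its introns. Slc7a11 shows how much this matters, since its span of 551089 bases in the annotation is 39.6 times its exon length. The recomputed values take the reads as counted over exons, which the sources used here do not state. The order of the genes rests on that. Hmox1, the inducible haem oxygenase that turns haem into biliverdin, iron and carbon monoxide, had the highest median of the pathway genes in every cell type. Its exon-length TPM was 396 in ESCs (range of 6 libraries 324 to 462), 655 in TSCs (361 to 822) and 273 in XEN cells (210.0 to 347). Txnrd1, the cytosolic thioredoxin reductase, came second with 259 in ESCs (243 to 271), 255 in TSCs (173 to 325) and 182 in XEN cells (155 to 205). The ranges of Hmox1 and Txnrd1 did not overlap within any of the cell types. Gsr, the reductase that restores glutathione from its oxidised form, was close behind Txnrd1 in ESCs at 239 (216 to 266), and the ranges overlapped. In TSCs it was at 80.9 (62.4 to 100.9) and in XEN cells at 59.9 (44.9 to 71.0), below the range of Txnrd1 in both.

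**Figure D1:**
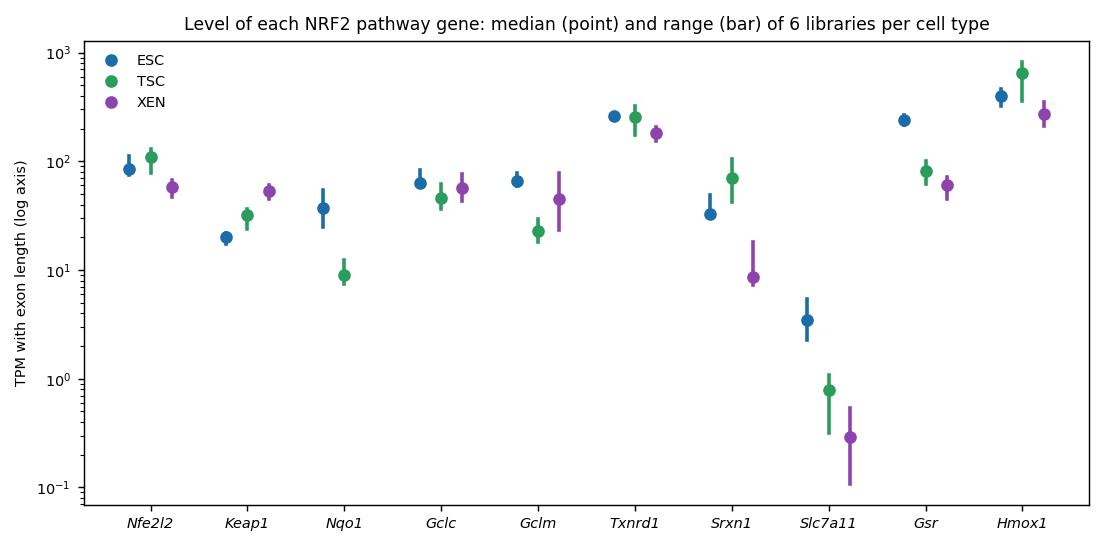
TPM recomputed with exon length, on a log axis, for each of the 10 genes in each cell type. Points are medians and bars the range of 6 libraries, normoxia and hypoxia together. Hmox1 and Txnrd1 stand highest and Slc7a11 lowest in all 3 cell types.

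The middle of the order was crowded. In ESCs, Nfe2l2 (85.0), Gclm (66.2) and Gclc (63.3) had overlapping ranges, as did Nqo1 (37.4) and Srxn1 (32.8), while Keap1 stood apart at 20.3 (17.2 to 21.9). In TSCs the order was Nfe2l2 (108), Gsr (80.9), Srxn1 (69.5), Gclc (46.3), Keap1 (31.8) and Gclm (22.8), and each range overlapped that of its neighbour. Nqo1, a quinone reductase, stood below these in TSCs at 9.02 (7.45 to 12.4). In XEN cells Gsr, Nfe2l2 (57.4), Gclc (57.3), Keap1 (53.7) and Gclm (44.7) could not be ordered within their ranges, and Srxn1 stood below them at 8.59 (7.33 to 17.9). Slc7a11, the transporter that brings in cystine for glutathione, was lowest everywhere, with 3.50 in ESCs (2.29 to 5.42), 0.781 in TSCs (0.318 to 1.08) and 0.292 in XEN cells (0.108 to 0.543). Its exon-length level exceeded that of at most 30.7% of the genes of the ESC table and 4.40% of those of the XEN table.

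The response to hypoxia was then tested on the log2 of deposited TPM plus 0.5 with limma across all genes of a cell type, and a gene was called differentially expressed (DE) at an adjusted p at or under 0.1 with a fold change over 1.5. Genes above 0.4 TPM in at least 2 of 6 libraries were tested, which kept 9 of the 10 genes in both ESCs and TSCs, and 8 in XEN cells. Slc7a11 did not pass this filter in any cell type. Against normoxia, no gene of the pathway was DE by limma at either time in any cell type, in 52 tests of a gene. An unadjusted p under 0.05 was reached in 3 of the 52, and voom on recovered reads called none of them. The estimated change was within 1.5-fold in 49 of the 52. The upper bound of the 95% interval lay under 1 log2 unit, a doubling, in all 52 of these tests, and the whole interval lay within 1 log2 unit of 0 in 43.

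The share of all tested genes that were DE was small in the same comparisons. In ESCs it was 0% for day 2 and 0.758% for day 7. TSCs had 0.2% and 0.385%, and XEN cells had 0% and 0.11%. The study reported more DE genes in each of these comparisons, with edgeR at the same thresholds. The small shares here are thus those of limma on log2 TPM. By limma at an unadjusted p under 0.05 the genes on day 2 numbered 620 in ESCs and 846 in XEN cells, where voom also called 0. These shares depend on single libraries. Without 1 library of the cell type, the number of DE genes among all tested lay between 0 and 493 in ESCs on day 2, the latter without the first library of day 2, and between 8 and 322 on day 7, where it was 93. A count of 0 among 8 or 9 genes is near the background under each of these. Between day 7 and day 2 the share was 16.2% in TSCs, with 0.179% in ESCs and 0.0367% in XEN cells. In TSCs the number behind it, 2019, lay between 0 and 2215 when a library was left out, at 0 without the second library of day 7 and 30 without the first of day 2. The pathway held 1 DE gene there, Hmox1 in TSCs. The only call among 78 tests of a gene was 1 of 9 in a comparison with a background of 16.2%, or of 2.37% for genes higher on day 7.

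**Figure D2:**
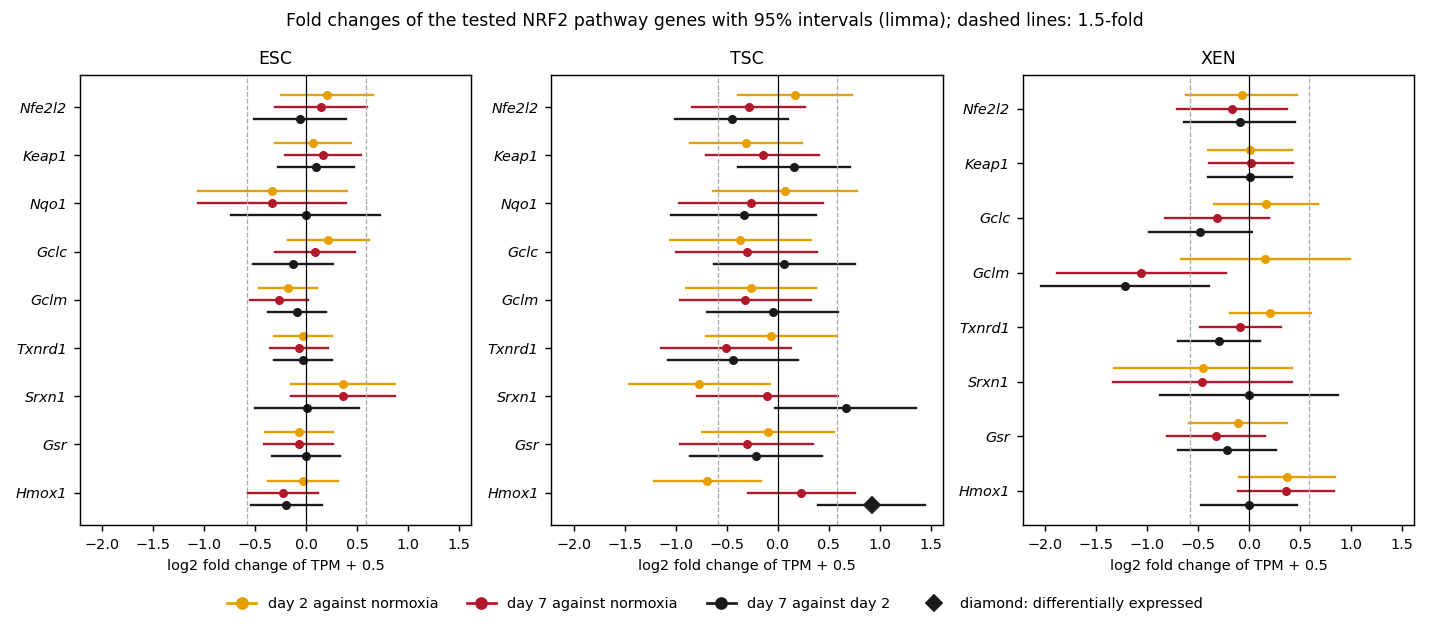
Log2 fold change of TPM + 0.5 (points) with the 95% interval (lines) for each tested gene in ESCs, TSCs and XEN cells, for the 3 comparisons. The diamond marks the only DE result, Hmox1 in TSCs on day 7 against day 2, and the largest estimates in XEN cells are those of Gclm on day 7.

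Neither Nfe2l2 nor its inhibitor Keap1 passed the test in any comparison. Where values follow each other without a label here, they stand in the order normoxia, day 2 and day 7, by replicate. In ESCs the normoxic libraries held 33.3 and 28.7 TPM of Nfe2l2, those of day 2 held 29.0 and 43.8 and those of day 7 held 35.3 and 33.1. In TSCs it was at 40.4 and 47.7, then 53.5 and 45.6, then 43.0 and 30.0 TPM, and both libraries of day 7 lay below both of day 2. The log2 fold change between these times was −0.45 (SE 0.24, limma adjusted p = 0.261) and was not past the threshold. In XEN cells the values were 27.6 and 23.5, 29.1 and 20.0, and 25 and 20.4 TPM, with groups that overlapped.

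Keap1 was the most even of the tested genes in XEN cells. It was at 81.2 and 86.5 TPM in normoxia, then 73.4 and 96.7 after 2 days and 86.2 and 83.3 after 7 days, with log2 fold changes against normoxia of 0.01 and 0.02 (95% intervals −0.40 to 0.42 and −0.39 to 0.42). In ESCs it lay between 24.6 and 31.5 TPM over all 6 libraries. In TSCs it was at 55.4 and 49.3 TPM in normoxia, 37.0 and 47.7 by day 2 and 55.1 and 40.2 by day 7, and day 2 lay below normoxia without overlap (log2 fold change −0.31, SE 0.23, limma adjusted p = 0.603). The count of Keap1 may include reads of Gm16754, an antisense transcript that overlaps it, since the strand setting of the counting is not given in the sources used here.

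**Figure D3:**
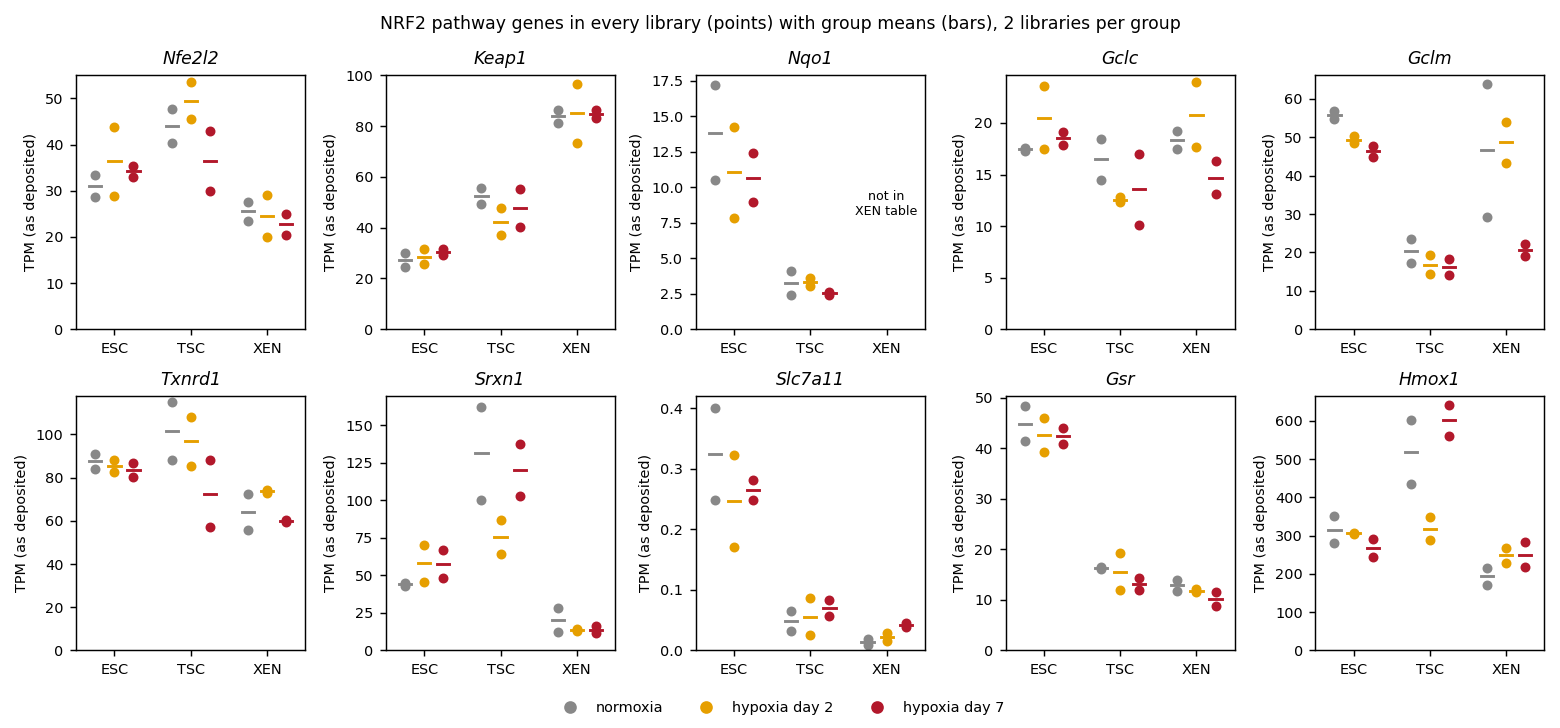
Deposited TPM of each gene in all libraries (points) with the group mean (bar), in normoxia, on day 2 and on day 7 of hypoxia for each cell type, with an axis from 0 per gene. Groups overlap or lie close together for most genes. Hmox1 and Srxn1 in TSCs and Gclm in XEN cells show the widest gaps.

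Among the genes of glutathione synthesis, Gclm had the largest differences. It encodes the modifier subunit of glutamate-cysteine ligase, which catalyses the rate-limiting step. In XEN cells it was at 63.8 and 29.3 TPM in normoxia, 54.1 and 43.3 at day 2, then 19.0 and 22.2 at day 7. Both libraries of day 7 lay below all 4 others, and the normoxic replicates differed from each other by more than those of the other groups. The log2 fold change on day 7 was −1.06 against normoxia (SE 0.35, 95% interval −1.89 to −0.23, unadjusted p = 0.0194, limma adjusted p = 0.472) and −1.22 against day 2 (SE 0.35, interval −2.05 to −0.39, limma adjusted p = 0.373). Neither passed the threshold. Without the second normoxic XEN library the difference from normoxia was −1.61 with a limma adjusted p of 0.0409, so that this call rests on which normoxic library is used.

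In ESCs Gclm ran from 54.8 and 56.9 TPM in normoxia to 50.2 and 48.4 after 2 days and 44.9 and 47.7 after 7 days of hypoxia. The 3 groups did not overlap. The log2 fold changes were small, at −0.18 on day 2 (SE 0.12) and −0.27 on day 7 (SE 0.12, 95% interval −0.55 to 0.01, limma adjusted p = 0.655). In TSCs Gclm was at 23.5 and 17.2, 14.3 and 19.3, and 18.3 and 14 TPM, with overlapping groups. The annotation places a transcribed pseudogene, Gm6061, within Gclm, so that its reads are uncertain where the authors' counting could split them.

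Gclc, the catalytic subunit of the same enzyme, did not share the differences of Gclm in size. In ESCs it was at 17.6 and 17.3 TPM in normoxia, then 17.5 and 23.5 after 2 days and 19.2 and 17.9 after 7 days. In XEN cells it was at 17.5 and 19.2, 24.0 and 17.6, and 13.1 and 16.3 TPM, and day 7 lay below both other groups, with log2 fold changes of −0.32 against normoxia (SE 0.21, limma adjusted p = 0.700) and −0.48 against day 2 (SE 0.21, limma adjusted p = 0.421). TSCs held 18.5 and 14.5, 12.3 and 12.8, and 17.0 and 10.1 TPM. Day 2 lay below normoxia there without overlap (log2 fold change −0.37, SE 0.29, limma adjusted p = 0.625).

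Slc7a11 was known from few reads, 432 to 985 per ESC library, 56 to 188 per TSC library and 26 to 82 per XEN library. By exon-length TPM it was at 0.232 and 0.108 in normoxic XEN cells, 0.180 and 0.353 on day 2 and 0.471 and 0.543 on day 7. Day 7 lay above all 4 other libraries. In limma on exon-length TPM, the log2 fold change on day 7 against normoxia was 0.59 (SE 0.32, limma adjusted p = 0.611). In ESCs and TSCs its groups overlapped in each comparison with normoxia. Its exon-length log2 fold changes against normoxia were −0.37 on day 2 and −0.24 on day 7 in ESCs (SE 0.31) and 0.06 and 0.36 in TSCs (SE 0.44), with limma adjusted p between 0.817 and 0.958. On deposited TPM, which lie below the pseudocount of 0.5 and hold any fold change near 0, they were between −0.14 and 0.08 in the 3 cell types.

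Gsr recycles glutathione. In ESCs it was at 48.4 and 41.3 TPM in normoxia, 46.1 and 39.2 by day 2 and 40.9 and 44.0 by day 7, with log2 fold changes of −0.07 and −0.08 against normoxia (SE 0.15). TSCs held 16.4 and 16.0, 12 and 19.2, and 14.3 and 11.9 TPM. In XEN cells it was at 13.9 and 11.8, 11.5 and 12.2, and 11.6 and 8.79 TPM. On day 7 both TSC and XEN libraries lay below those of normoxia, by −0.31 (SE 0.27, limma adjusted p = 0.728) and −0.33 (SE 0.20, limma adjusted p = 0.680) on the log2 scale.

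Txnrd1 was among the steadiest genes in ESCs, where its highest library was 1.13 times its lowest. There it was at 91.0 and 84.2 TPM in normoxia, 82.7 and 88.4 at day 2, then 86.6 and 80.3 at day 7. In XEN cells it was at 72.5 and 56.0, 73.0 and 74.2, and 59.3 and 60.4 TPM, so that day 2 lay just above both other groups (log2 fold change against normoxia 0.21, SE 0.17, limma adjusted p = 0.789). TSCs held 115 and 88.3, 108 and 85.6, and 88.2 and 56.9 TPM. The log2 fold change on day 7 against normoxia was −0.50 (SE 0.27, limma adjusted p = 0.585), which did not pass the threshold, and the lowest normoxic and the highest day 7 library were close. Eid3 lies within Txnrd1 on the same strand, so that reads of this region are uncertain.

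Srxn1 encodes sulfiredoxin, which reverses the overoxidation of peroxiredoxins. On day 2 its libraries lay above normoxia in ESCs and below it in TSCs, a difference that was not tested. In ESCs it was at 45 and 43.1 TPM in normoxia, then 45.5 and 70.2 after 2 days and 67.0 and 48.2 after 7 days. All 4 hypoxic libraries lay above both normoxic ones, with log2 fold changes of 0.36 on both days (SE 0.22, limma adjusted p = 0.986 and 0.805). The difference on day 2 rests on 1 library, being 0.05 without the second library of day 2 and 0.67 without the first. In TSCs it was at 162 and 100.1 TPM in normoxia, 64.1 and 86.8 by day 2 and 137 and 102 by day 7. Day 2 lay below all other TSC libraries. The log2 fold change on day 2 was −0.77 against normoxia (SE 0.29, unadjusted p = 0.0343, limma adjusted p = 0.342), and day 7 stood 0.67 above day 2 (SE 0.29, limma adjusted p = 0.194). With libraries scaled by their median ratio, the latter was 0.94 with a limma adjusted p of 0.0810 and passed the threshold. In XEN cells Srxn1 was at 28.0 and 12.5, 12.8 and 14.3, and 15.9 and 11.5 TPM, where 1 normoxic library was high and the groups overlapped.

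Nqo1 was measured in ESCs and TSCs. In ESCs it was at 17.2 and 10.5 TPM in normoxia, 14.3 and 7.81 at day 2, then 8.95 and 12.4 at day 7. Its groups overlapped and its replicates differed widely, and the log2 fold changes were −0.33 and −0.34 (SE 0.32, limma adjusted p = 0.987 and 0.929). TSCs held 4.10 and 2.4, 3.62 and 3.07, and 2.44 and 2.65 TPM. The 95% interval of its difference from normoxia reached from −0.64 to 0.78 on day 2, the widest of the 9 tested in TSCs.

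Hmox1 was the only DE gene of the pathway, and the change was between the hypoxic time points in TSCs. TSCs held 601 and 435 TPM in normoxia, then 288 and 348 after 2 days and 642 and 560.3 after 7 days. The means were 518 ± 117 TPM, 318 ± 42 TPM and 601 ± 58 TPM (SD, n = 2 libraries each). Both libraries of day 2 lay below all 4 others, and day 7 overlapped normoxia. Hmox1 rose from day 2 to day 7 by a log2 fold change of 0.92 (SE 0.22, 95% interval 0.40 to 1.44, limma adjusted p = 0.0533). Against normoxia it was at −0.69 on day 2 (SE 0.22, interval −1.22 to −0.17, unadjusted p = 0.0167, limma adjusted p = 0.289) and at 0.23 on day 7 (SE 0.22, limma adjusted p = 0.745). The median of all tested genes was −0.24 for day 7 against day 2 and moved by 0.25 when libraries were scaled by their median ratio. On that scale the rise of Hmox1 was 1.20 (limma adjusted p = 0.0363).

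The call for Hmox1 was lost when 1 of 3 libraries was left out. The limma adjusted p was 0.292 without the first library of day 2, 0.163 without the first and 0.209 without the second of day 7, with log2 fold changes of 0.79, 0.82 and 1.02. It held without the second library of day 2, at 1.06 and an adjusted p of 0.0845. Markers of cell state moved in the same comparison of TSCs, where 13.8% of all tested genes fell and 2.37% rose. Of 7 TSC markers 3 fell, Elf5 (−2.30), Cdx2 (−1.68) and Tead4 (−0.93), and Krt8 (1.23) rose by limma. Of the 4 ESC markers tested, Sox2 (−2.85), Nanog (−1.96) and Zfp42 (−1.16) fell, and of the 4 markers of differentiated trophoblast, Gcm1 (−1.38) and Ascl2 (−1.16) fell and Prl3d1 (2.15) rose. The summed TSC markers were at 21932 and 39973 TPM in normoxia, then 23445 and 20688 after 2 days and 38701 and 40107 after 7 days. Krt8 alone was at 2896 and 3596 TPM on day 2 and 7399 and 7702 on day 7. Elf5, Cdx2 and Tead4 each held at most 169 TPM in these 4 libraries, so that the sum does not follow their fall. The part of the markers in the change of Hmox1 was not tested. Fibroblast marker sums, 206 and 962 TPM on day 2 and 435 and 262 TPM on day 7, overlapped between these groups. Within each of the 3 conditions, the library with the higher fibroblast sum had the higher Srxn1 in TSCs. The same was true of Hmox1, Keap1, Gclc, Gclm, Gsr and Slc7a11, but not of Nfe2l2, Nqo1 and Txnrd1. The share of all genes with this pattern was not counted, so that it is not a result about these genes. The part of feeder cells in it was not tested.

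**Figure D4:**
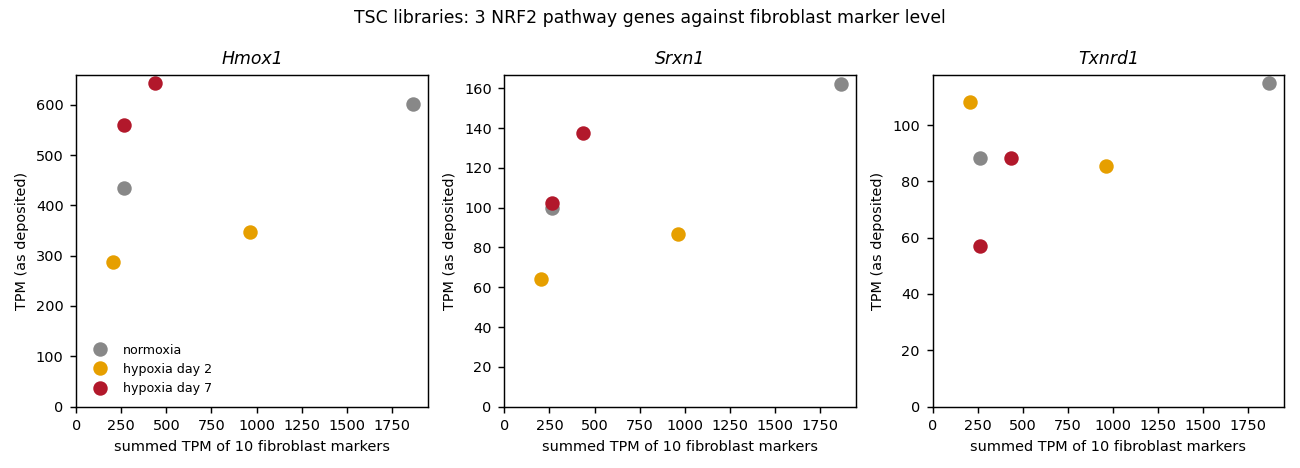
Deposited TPM of Hmox1, Srxn1 and Txnrd1 in the 6 TSC libraries against the summed TPM of 10 fibroblast markers, coloured by condition. The day 2 libraries, at sums of 206 and 962, are lowest for Hmox1 and Srxn1 at both ends of that range. For Txnrd1 the day 2 library at 206 stands above that at 962.

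In XEN cells Hmox1 was at 216 and 171 TPM in normoxia, 269 and 229 by day 2 and 282 and 217 by day 7. Each hypoxic library lay above both normoxic ones, by 0.37 on day 2 and 0.36 on day 7 on the log2 scale (SE 0.20, limma adjusted p = 0.705 and 0.642). In ESCs it was at 351 and 279.8, 308 and 304, and 245 and 292 TPM. The log2 fold changes there were −0.03 on day 2 and −0.23 on day 7 (SE 0.15, limma adjusted p = 0.993 and 0.845).

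As a group, the tested genes had median log2 fold changes against normoxia between −0.29 and 0.08. The median log2 fold change of its tested genes in ESCs was −0.03 on day 2 and −0.07 on day 7, beside 0.01 and 0.02 for all tested genes. In TSCs it was −0.27 and −0.29, beside 0.07 and −0.18. In XEN cells it was 0.08 and −0.24, beside −0.01 and −0.03. With libraries scaled by their median ratio, the value of TSCs was −0.35 on day 2 and −0.10 on day 7. Nqo1 turned to lower on day 2, and Keap1 and Srxn1 turned to higher on day 7, which left 8 and 6 of 9 genes lower. On that scale the day 7 values of Txnrd1, Gsr and Hmox1 were −0.31, −0.12 and 0.42. The median of day 7 against day 2 in TSCs turned from −0.05 to 0.22, with Gclm and Gsr turning from lower to higher and Nfe2l2 at −0.18.

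The number of pathway genes whose libraries did not overlap between groups was not above what all genes gave, apart from XEN cells on day 7. Against normoxia on day 2, 2 of 9 did not overlap in ESCs (1 higher and 1 lower), 4 of 9 in TSCs (all 4 lower) and 2 of 8 in XEN cells (both higher), beside 30.8%, 47.4% and 41% of all tested genes. On day 7 it was 3 of 9 in ESCs (2 higher), 2 of 9 in TSCs (both lower) and 4 of 8 in XEN cells (3 lower), beside 40.5%, 41.3% and 41.3%. Between day 7 and day 2 it was 2 of 9, 4 of 9 and 3 of 8, beside 24%, 59.3% and 47.7%. Shares this near to the background, or under it, are not a result about the genes.

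Genes that NRF2 is known to act on outside the 10, such as enzymes of the pentose phosphate pathway, glutathione transferases and ferritin subunits, were then counted. Of a list of 26, the ESC, TSC and XEN tests covered 24, 22 and 21, and limma called 0 against normoxia at either time in any cell type. On day 2, 4, 3 and 2 of them had an unadjusted p under 0.05, and on day 7 the numbers were 3, 1 and 1. Among all tested genes such a p was reached by 5.05%, 13.1% and 7.77% on day 2 and by 8.04%, 10.4% and 9.01% on day 7. On day 7 the median log2 fold change of the list in the same order of cell types was 0.14, −0.13 and −0.05. Between day 7 and day 2 in TSCs, 3 of the 22 fell and 0 rose, where 13.8% of all tested genes fell, so that the share is that of the background. They were Tkt, the transketolase of the pentose phosphate pathway (log2 fold change −0.86, limma adjusted p = 0.0351), Abcc4, an exporter of organic anions (−0.92, 0.0788), and Gstm1, a glutathione transferase (−1.75, 0.0709). Tkt was at 179 and 155 TPM on day 2 and at 95.1 and 88.9 on day 7, so that it lay lower at the time when Hmox1 lay higher.

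Regulators and partners of NRF2 counted 13 genes, among them the small MAF proteins and the repressors Bach1 and Bach2. None was DE against normoxia by limma, and 2 of 11 fell from day 2 to day 7 in TSCs, near the 13.8% of all tested genes that fell in this comparison. These were Maff, a small MAF partner (−0.84, limma adjusted p = 0.0426), which was at 59.6 and 71.3 TPM on day 2 and 35.5 and 36.7 on day 7, and Nfe2l3, an NRF2-related factor at or below 1.37 TPM in these 4 libraries (−1.22, limma adjusted p = 0.0596). Other antioxidant enzymes, a list of 26 with peroxidases, catalase and superoxide dismutases, held 1 DE gene against normoxia. Gpx3, a secreted glutathione peroxidase, fell in TSCs on day 7 from 255 and 237 TPM to 100.4 and 87.8 (log2 fold change −1.38, limma adjusted p = 0.0863), a call lost with voom (adjusted p = 0.116) and with the replicate block (0.137), after 382 and 284 TPM on day 2. From day 2 to day 7 in TSCs, Gpx3 (−1.81) and catalase, Cat (−0.81), fell and the mitochondrial peroxiredoxin Prdx3 (0.83) rose, at limma adjusted p of 0.0138, 0.0571 and 0.0989. These 2 lower and 1 higher of 26 tested stand beside 13.8% and 2.37% of all tested genes, which is near the background.

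Targets of hypoxia-inducible factors (HIF) were set beside the pathway as a readout of low oxygen. Of 15 such genes, the log2 fold change on day 2 was above 0 in 14 of 15 in ESCs, 15 of 15 in TSCs and 12 of 13 tested in XEN cells. Their medians were 1.03, 1.72 and 0.71, where the NRF2 genes had −0.03, −0.27 and 0.08. By limma 6 of the 15 were DE in TSCs on day 2, all higher, beside 0.2% of all tested genes. They were led by the aldolase Aldoc (3.56, limma adjusted p = 0.0493), the glucose transporter Slc2a3 (3.53, 0.0325), the carbonic anhydrase Car12 (2.67, 0.0480) and Pdk1 (2.47, 0.0191), which restrains the entry of pyruvate into mitochondria. On day 7 the medians of the HIF targets were 1.09, 0.54 and 0.85 in the same order, and Ndufa4l2 (3.66) and Ldha (0.99) in ESCs and the oxygen sensor Egln3 (2.81) in XEN cells were DE by limma. The share of all tested genes was 0.758% in ESCs and 0.11% in XEN cells. The call of Ndufa4l2 was lost with voom (adjusted p = 0.275) and, as that of Ldha, with the replicate block (0.229). In TSCs on day 2 the block also lost the calls of Aldoc, Slc2a3 and Car12 (limma adjusted p = 0.193). It kept that of Pdk1 (0.0736). From day 2 to day 7 in TSCs, 9 of the 15 fell and 0 rose, where 13.8% of all tested genes fell and 2.37% rose. The list median was −0.99, beside −0.24 for all tested genes, whereas Hmox1 rose in the same comparison.

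**Figure D5:**
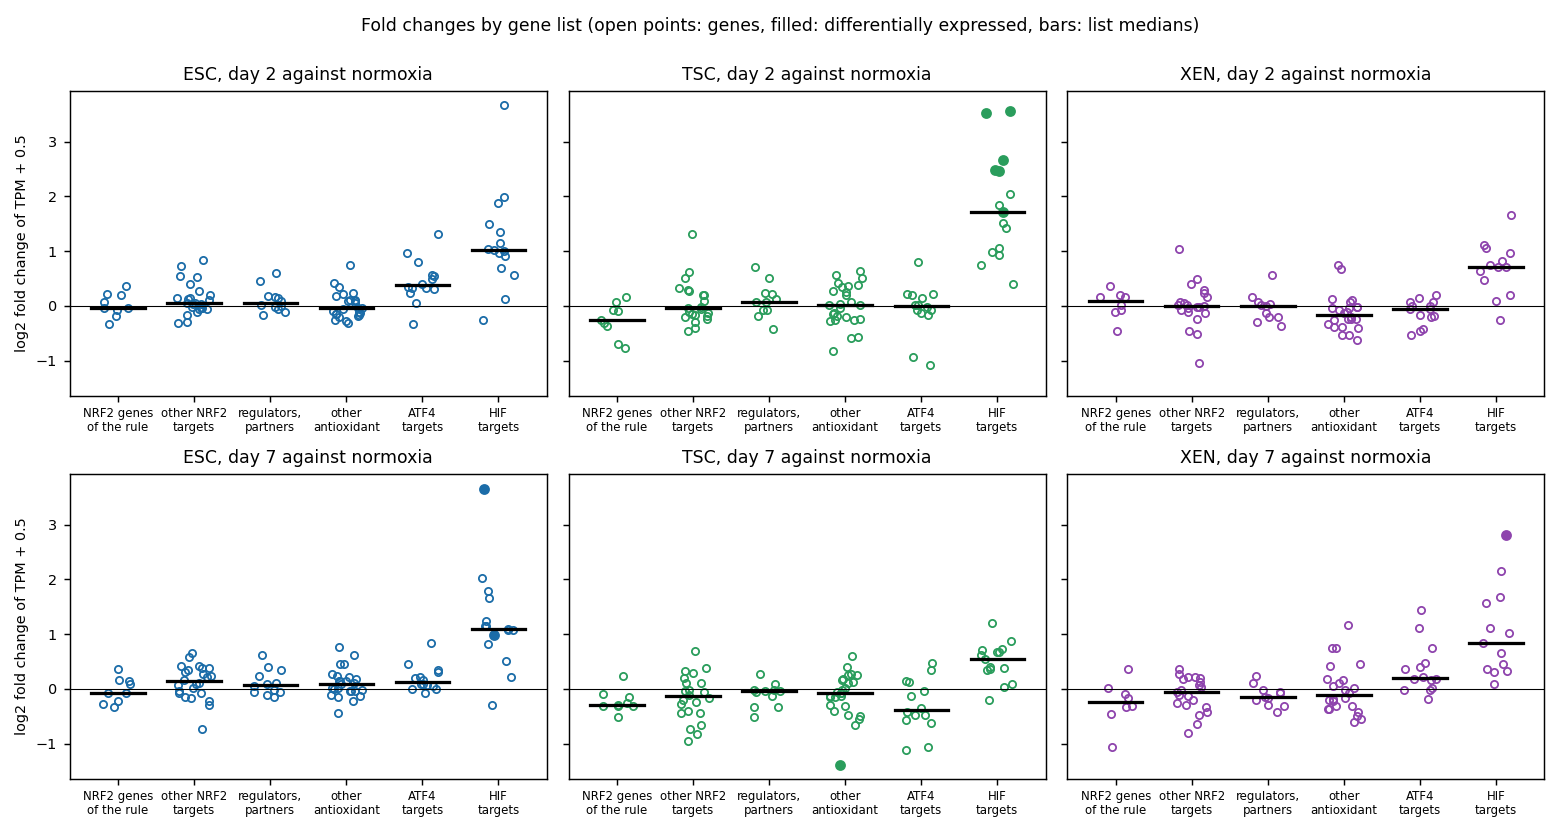
Log2 fold change of TPM + 0.5 against normoxia for the genes of 6 lists (points, filled where DE) with the list median (bar), by cell type and day. The medians of the NRF2 genes lie between −0.29 and 0.08 and those of the HIF targets between 0.54 and 1.72. In TSCs 7 of 9 NRF2 genes lie below 0 on day 2 and 8 of 9 on day 7. With libraries scaled by their median ratio, not drawn here, the numbers were 8 of 9 and 6 of 9.

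Targets of ATF4, a stress factor that shares Slc7a11 with NRF2, had a median on day 2 of 0.38 in ESCs, and of −0.003 and −0.05 in TSCs and XEN cells. None of the 14 was DE against normoxia by limma in any cell type, and from day 2 to day 7 in TSCs 4 of 14 fell and 1 rose, where 13.8% of all tested genes fell and 2.37% rose, led by Chac1 (−1.13), Slc7a5 (−0.94), Sesn2 (0.80) and Psat1 (−0.68). Genes of haem and iron handling, the pathway in which Hmox1 acts, had medians of 0.05, 0.01 and −0.01 on day 2 and none DE against normoxia. From day 2 to day 7 in TSCs, 1 of these 10, the iron exporter Slc40a1, fell (−2.15, limma adjusted p = 0.0135), a share under that of all tested genes.

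No pair of the genes followed each other closely. Over the 18 libraries, with each gene centred within its cell type, Pearson's r between the 8 genes tested in all 3 cell types lay between −0.29 (Nfe2l2 and Hmox1) and 0.58 (Gclm and Gsr) in the 28 pairs. Of the 10081 genes tested in all 3 tables, and leaving out the pathway's own, the one most like Hmox1 was Actb (r = 0.87), that most like Srxn1 was Clic1 (0.92) and that most like Gclm was Nt5c2 (0.90). Libraries share depth and scaling within a table, and these values describe the libraries only.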

How the data were processed

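RNA of 18 libraries was sequenced in paired-end format. Per the submitters' processing notes and the study's methods, the authors trimmed reads with cutadapt 2.4, aligned them to mm10 with STAR 2.7.5a, ran StringTie 2.0.6, counted with featureCounts, kept protein-coding genes of sufficient CPM (edgeR 3.26.8) and deposited TPM in a table per cell type. Columns named D0 were taken as normoxia.

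TPM times gene span fell within 0.05 of whole multiples of 1 step per library for at least 98.7% of values, against at most 10.6% with exon length. The multiples are the reads, used for depth, exon-length TPM and voom. Exon-length TPM takes them as counted over exons, which the sources used here do not state. The log2 of TPM plus 0.5 was fitted with limma 3.58.1 (R 4.3.3, mean-variance trend) to all 6 libraries of each cell type together, with Benjamini-Hochberg adjustment over all tested genes. Gene models came from GENCODE. Figures used Python 3.11.15 and matplotlib 3.10.9. On simulated data for day 7 against normoxia, limma found 84.5% (ESCs), 89.5% (TSCs) and 87% (XEN cells) of 200 genes changed 2-fold, with 28, 27 and 39 false calls. The simulated spread was a fixed value for all genes and was not estimated from these libraries. These shares are therefore not the power of the tests above. In the data, 0 of the 15 HIF targets were DE in ESCs on day 2 at a median log2 fold change of 1.03.

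The members and lists were chosen with earlier results of these data known. All 10 genes are named, and from each other list at most 4 DE genes per comparison, by size of fold change. Marker lists are given by count and sum. The gene most like each of the 3 members with the widest range of fold changes was named. Replicate numbers are shared by the labels, but no source says that they mark a shared batch, so they were not fitted. Alternatives were other pseudocounts and filters, median-ratio scaling, the replicate block, no trend, fits to 4 libraries, a stricter threshold, voom, each library left out and, added after seeing the data, exon-length TPM and a crossed block.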

Additional observations from a re-analysis of the deposited data

Results flagged for a closer look

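Hmox1 in TSCs differed between the hypoxic time points, with a log2 fold change of 0.92 for day 7 against day 2 (limma adjusted p = 0.0533). Days of hypoxia and time in culture cannot be told apart in this value. Day 7 against day 2 in ESCs was at −0.19, where both libraries of day 7 lay below both of day 2 while in TSCs both lay above. This difference between cell types was not tested. On day 2 against normoxia, Hmox1 stood 0.37 higher in XEN cells and was at −0.69 in TSCs, and Srxn1 stood 0.36 higher in ESCs and was at −0.77 in TSCs. The value of Srxn1 in ESCs rests on the second library of day 2, without which it was 0.05. In each of these every library of one cell type moved one way and every library of the other moved the opposite way, and the differences were not tested. On day 7 Gclc stood 0.085 higher in ESCs and was at −0.32 in XEN cells, again untested. None of the cell-type values named here for day 2 or day 7 against normoxia was DE by limma.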

How the results depend on the processing

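The number of DE genes of the pathway stayed at 0 under every alternative in 7 of the 9 comparisons. For day 7 against day 2 in TSCs, 1 gene was DE as reported, 2 with median-ratio scaling (Hmox1 and Srxn1) and 0 at an adjusted p at or under 0.05 with a fold over 2, and between 0 and 1 when a library was left out. For XEN cells on day 7 against normoxia the number was 0, and between 0 and 1 when a library was left out. With the replicate number as a block, Hmox1 had a limma adjusted p of 0.0788 and the number of DE genes of the pathway was unchanged in all 9 comparisons. Across all tested genes the block moved the DE genes on day 7 from 93 to 18 in ESCs, from 48 to 13 in TSCs and from 12 to 43 in XEN cells, and those of TSCs on day 2 from 25 to 3, where the block with crossed numbers gave 326. The crossed block moved those of day 7 against day 2 from 22 to 60 in ESCs and from 4 to 1 in XEN cells. Same-numbered libraries had deviations correlated between −0.46 and 0.27, and where this lay under −0.1 a crossed block gave no other number of DE genes of the pathway. Where a library is left out, its partner is assumed to vary like the other libraries of the fit. No fold change of a pathway gene with libraries that did not overlap reversed under any alternative. Depth limits Slc7a11, with 26 to 82 reads in XEN cells.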
